A study of Mus musculus with 16 samples.

Results

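The cytosolic heat shock genes Hspa1a, Hspa1b, Hspa8, Hsph1, Hsp90aa1, Hsp90ab1, Dnajb1, Hspb1, Hsf1 and Bag3 were followed across all groups of the study. The rule takes them by name, as the main cytosolic chaperones and partners of the heat shock response. Of these 10 genes, 7 had a probe that carried their symbol in the platform annotation, with 9 probes in all, and all 7 were tested among 11338 features. Hspa1b, Hsp90ab1 and Hsf1 were not analysed here.

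Heat shock proteins bind unfolded or partly folded polypeptides and help them fold, hold them in solution or pass them to degradation. In the HSP70 cycle a J-domain protein delivers the client and stimulates ATP hydrolysis, and a nucleotide exchange factor then opens the chaperone again. The inducible members are switched on by heat shock factor 1, the product of Hsf1, which binds repeated GAA units called heat shock elements. Hepatocytes make large amounts of secreted protein and metabolise reactive compounds, and toxic injury of the liver is a known setting of heat shock gene induction.

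The livers came from male FVB mice aged 10 weeks. The knockout (KO) mice carried a LKB1 lox/lox genotype with the deletion confined to liver, and the controls were wild-type (WT) mice; the labels do not name the driver of the deletion. LKB1, encoded by Stk11, is a kinase upstream of the energy sensor AMPK. Mice of each genotype received AICAR, which cells turn into an activator of AMPK, its vehicle saline, carbon tetrachloride (CCl4), a liver toxicant activated by cytochrome P450 enzymes, or its vehicle mineral oil. There were thus 8 groups with 2 arrays each, 16 in all. The labels name them as biological replicates but give no animal, and the p-values therefore reflect the spread among these samples, which may be technical. No dose or time was used here.

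Array medians of the raw signal lay between 172.4 and 213.7, and an array had between 12233 and 13730 of 25697 probes above background at a detection p-value under 0.05. On a normalized log2 scale, Stk11 lay between 8.94 and 9.54 on the 8 KO arrays, against 10.04 to 10.38 on the 8 WT arrays, and every KO array lay below every WT array. The KO saline arrays stood apart from the other pairs. Their differences, taken over 693 probe pairs that share a gene, had a correlation of 0.0267 (95% interval -0.048 to 0.1), where the lowest of the other 119 array pairs had 0.438. They were therefore averaged and counted as 1 sample, which leaves 15 samples. Hepatocyte markers were the brightest of the marker lists, with 5 of 6 annotated genes detected and a summed normalized intensity between 168495 and 201255 in every group.

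The sequences in front of the genes are shown first because the inducible members are known for a shared promoter element. RefSeq start site windows (build GRCm38.p6, 250 bases before to 50 after the start) were found for 6 of the 10 genes. The windows were searched for the 2-unit cores GAANNTTC and TTCNNGAA, each of which reads the same on both strands, and for 3 units in a row, which are both cores overlapping in their middle unit. Their 8 windows held a core in 6 cases, in comparison with 15.1% of all 32851 windows. These are not independent sequences: the windows of Hspa1a and Hspa1b are nearly the same, and the 2 Hsph1 windows overlap and hold the same matches. The 3-unit form was found for Hsph1 alone, in comparison with 0.603% of all windows. The lines give the 250 bases before the start, 5′ to 3′ on the gene's strand, with core matches in capitals. The stretches are chr17:34972157-34972406 for Hspa1a (minus strand), chr8:83607925-83608174 for Dnajb1 (plus), chr7:128523333-128523582 for Bag3 (plus), chr5:135887669-135887918 for Hspb1 (plus) and chr5:149636337-149636586 for Hsph1 (minus).
Hspa1a: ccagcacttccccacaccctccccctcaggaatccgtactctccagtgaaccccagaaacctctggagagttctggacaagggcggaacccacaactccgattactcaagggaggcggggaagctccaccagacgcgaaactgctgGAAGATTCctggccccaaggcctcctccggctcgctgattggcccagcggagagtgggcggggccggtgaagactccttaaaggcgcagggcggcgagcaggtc
Dnajb1: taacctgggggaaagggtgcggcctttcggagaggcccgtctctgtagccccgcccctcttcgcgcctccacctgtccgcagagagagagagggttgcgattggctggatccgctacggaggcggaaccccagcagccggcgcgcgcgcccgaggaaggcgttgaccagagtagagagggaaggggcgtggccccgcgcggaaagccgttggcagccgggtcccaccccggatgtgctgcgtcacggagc
Bag3: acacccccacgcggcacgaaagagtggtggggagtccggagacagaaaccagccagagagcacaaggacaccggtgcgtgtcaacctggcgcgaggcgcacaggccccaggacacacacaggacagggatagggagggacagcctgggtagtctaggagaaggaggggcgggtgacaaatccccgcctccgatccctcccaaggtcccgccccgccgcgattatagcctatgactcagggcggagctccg
Hspb1: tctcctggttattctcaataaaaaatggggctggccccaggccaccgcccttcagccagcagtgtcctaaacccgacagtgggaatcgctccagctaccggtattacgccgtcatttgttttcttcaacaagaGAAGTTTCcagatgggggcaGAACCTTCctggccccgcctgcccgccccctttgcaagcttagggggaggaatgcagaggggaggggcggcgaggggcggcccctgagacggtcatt
Hsph1: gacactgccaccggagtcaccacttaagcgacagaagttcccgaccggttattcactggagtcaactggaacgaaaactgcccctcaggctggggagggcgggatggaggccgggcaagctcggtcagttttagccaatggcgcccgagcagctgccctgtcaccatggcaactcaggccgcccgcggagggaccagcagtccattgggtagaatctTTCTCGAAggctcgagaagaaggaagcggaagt

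For Bag3 and Hsph1 a match lay after the start, and the last 30 bases of each window are given for that reason, at chr7:128523603-128523632 and chr5:149636287-149636316.
Bag3 after the start: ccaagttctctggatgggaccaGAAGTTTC
Hsph1 after the start: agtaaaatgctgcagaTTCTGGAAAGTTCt

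The cores began at base -104 in Hspa1a, at bases -117 and -97 in Hspb1, at bases -33, 37 and 42 in the first of 2 Hsph1 windows and at base 43 in Bag3, counted from the start site. The matches at 37 and 42 in Hsph1 overlap and form its 3-unit run. Neither Dnajb1 window held these letters, which says nothing beyond the window. The windows of Hspa1a and Hspa1b, neighbours on chromosome 17, had the same base at 296 of 300 positions, and whether the Hspa1a probe also binds Hspa1b RNA was not examined.

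The members differed in how far their group means spread. Hspb1 had the widest spread, 2.75 log2 units between its lowest group mean (9.25, KO CCl4) and its highest (12, WT AICAR), wider than 98.1% of all tested features. Bag3 spanned 1.49 units and Dnajb1 1.35 units, and for both the highest group was KO AICAR, at 13.05 and 12.47. Hsp90aa1 spanned 1.06 units and Hsph1 0.68, while no range is given for Hspa1a, whose arrays were not above background in the lowest group, WT saline. Hspa8 spanned 0.35 units on its brighter probe, whose signal lay near the array maximum, and the group means of its second probe ran from 13.15 in WT oil to 14.26 in KO AICAR. The pooled replicate SD was 0.75 for Hspb1, against 0.18 for both Bag3 and Dnajb1, so the member with the widest range was also the one whose replicates differed most.

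**Figure D1:**
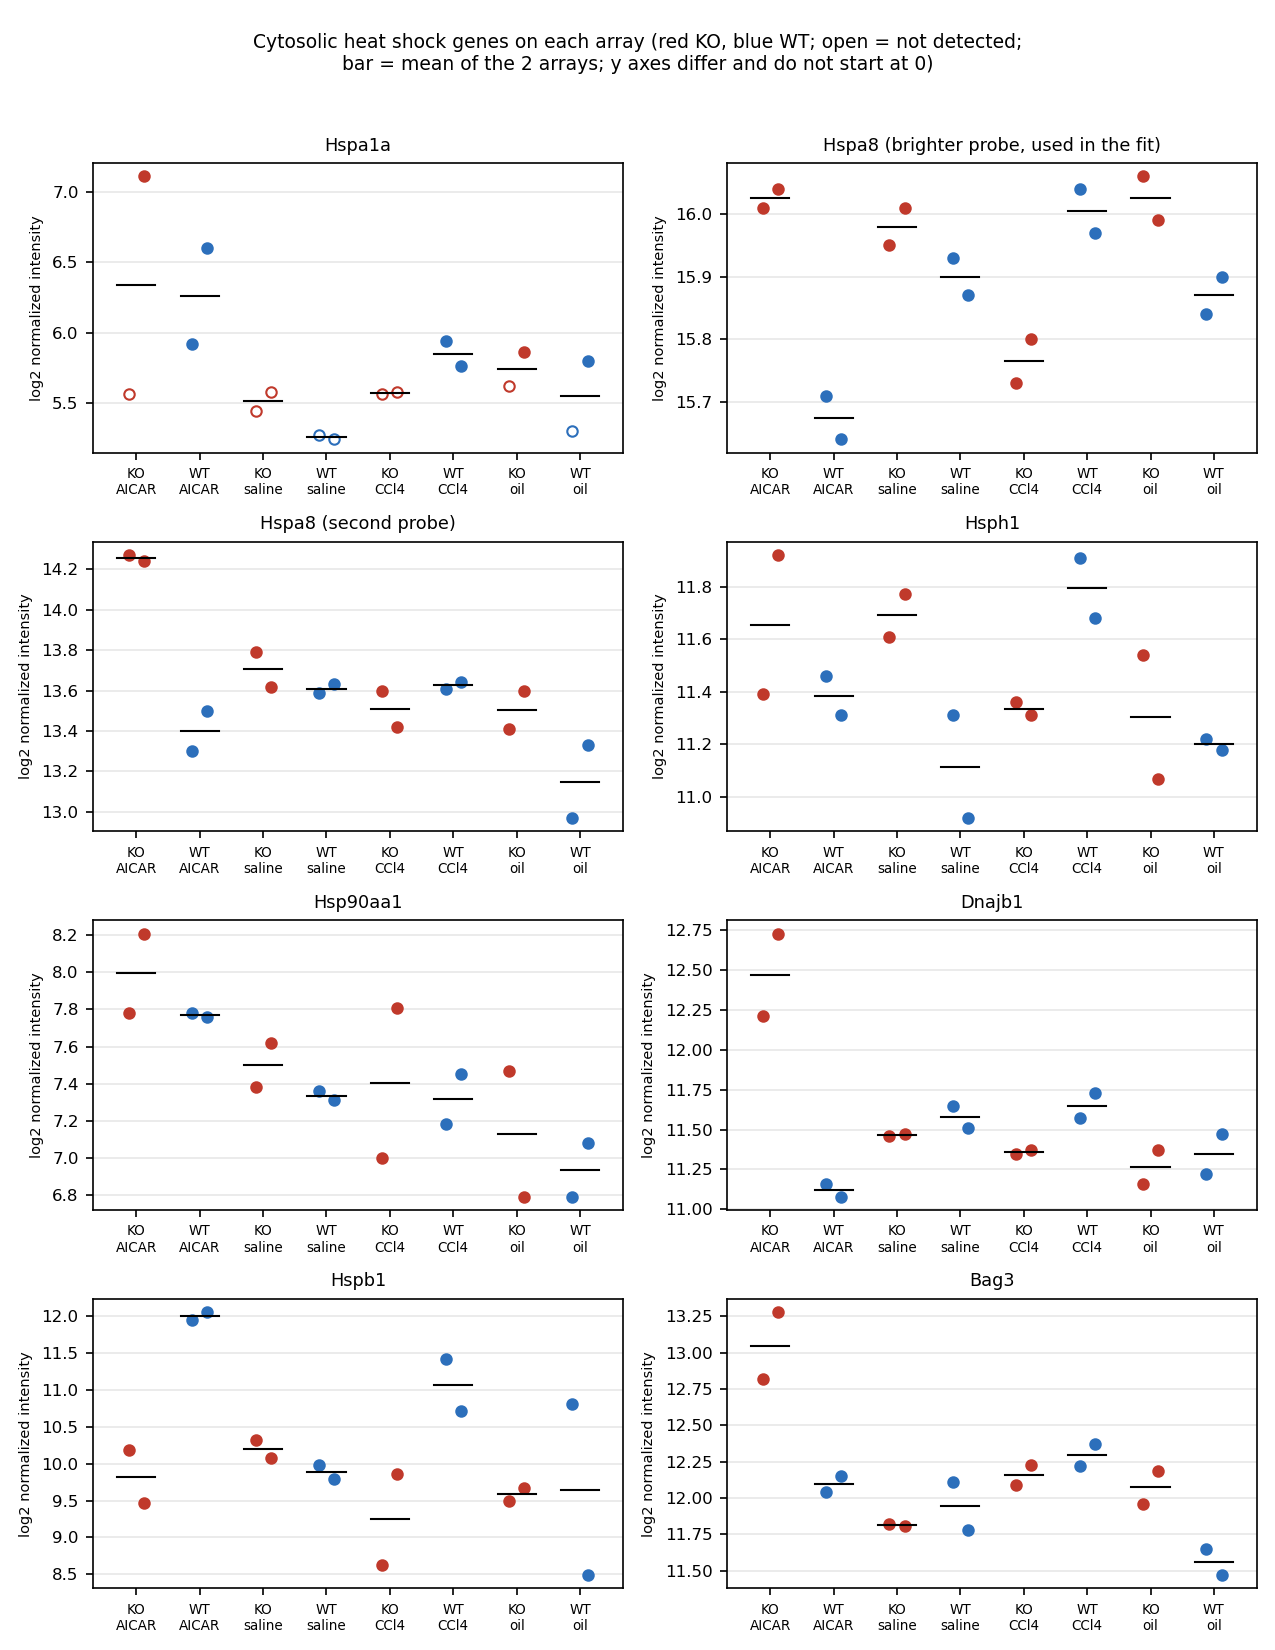
Normalized log2 intensity of each kept probe of the cytosolic heat shock genes on each of the 16 arrays (y axis, log2 units, each panel with its own range not starting at 0), with KO arrays in red, WT arrays in blue, open circles for arrays on which the probe was not detected and a bar for the mean of 2 arrays. Dnajb1 and Bag3 are highest on both KO AICAR arrays, and Hspb1 is highest on both WT AICAR arrays.

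After AICAR, the KO livers had more Dnajb1 and Bag3 RNA than the WT livers. Of the 7 tested members these 2 passed the threshold of a limma adjusted p under 0.05, both higher in KO, where 7.53% of all features were called in this comparison. Over the 6 members detected on every array, which leaves out Hspa1a, the median difference was 0.31 log2 units, where the median of all features was -0.04. In bulk liver, fewer cells of a type and less RNA per cell cannot be told apart, here and in all results that follow.

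Dnajb1 encodes the J-domain protein that delivers clients to cytosolic HSP70 and starts its ATP cycle. Its level (probe ILMN_1240323) was 12.21 and 12.73 log2 units in KO AICAR livers, against 11.16 and 11.08 in WT AICAR livers. Both KO values lay above every other array of the study, which ranged up to 11.73. The difference was 1.35 ± 0.21 (SE, 2 against 2 samples), or 2.55-fold, with a limma adjusted p of 0.0039. It passed in all 10 alternative fits and without any 1 of the 16 arrays (highest adjusted p = 0.0389).

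Bag3 encodes a nucleotide exchange factor of HSP70 that also bridges HSP70 to small heat shock proteins and to autophagy. Bag3 (probe ILMN_1226195) read 12.82 and 13.28 in KO AICAR livers, against 12.04 and 12.15 in WT AICAR livers. As for Dnajb1, both KO AICAR arrays were above all others, of which the highest read 12.37. The difference was 0.95 ± 0.21 (SE), or 1.94-fold, with a limma adjusted p of 0.0221. The call was lost without WT AICAR replicate 1 or 2 or KO AICAR replicate 2 (adjusted p = 0.14, 0.101 and 0.13) and when only the compared arrays were fitted (0.0573).

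Hspa8 encodes HSC70, the constitutive HSP70 of the cytosol, and 2 probes measured it. The brighter one, ILMN_1260103, which was used in the fit, read 16.01 and 16.04 in KO AICAR livers, against 15.71 and 15.64 in WT AICAR livers, a difference of 0.35 ± 0.16 with adjusted p = 0.199. The WT AICAR arrays were the lowest of the study for this probe. Its raw signal of 46783 to 68528.5 lay close to the brightest probe of each array (68747.9 to 72185.6), and only 0.0817% of probes were brighter. The second probe, ILMN_2918479, with 8783.3 to 19298.8 units of raw signal, read 14.27 and 14.24 in KO AICAR livers, against 13.3 and 13.5 in WT AICAR livers. That probe differed by 0.86 ± 0.19 (SE), or 1.81-fold, with a limma adjusted p of 0.0231 in the fit over every kept probe. The brighter probe gave 0.62 with arrays centred on their medians in place of quantile normalization, so its value depends on the scaling.

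Hspb1 encodes HSP27, a small heat shock protein that holds unfolding proteins and binds actin. Its probe ILMN_2706269 differed in the opposite direction, with 10.18 and 9.46 in KO AICAR livers, against 11.94 and 12.05 in WT AICAR livers. The groups did not overlap, and the WT AICAR arrays were the highest of the study. The difference of -2.17 ± 0.63 (SE, 4.51-fold lower) did not pass, with a limma adjusted p of 0.0609. In the fits without WT oil replicate 1 or 2, whose own Hspb1 values were 10.8 and 8.49, the adjusted p was 0.0111, and it passed in 4 of 10 alternative fits.

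Marker sums of several other cell types, though not of all, were lower in KO than in WT after AICAR, as Hspb1 was. The summed normalized intensity of the 4 smooth muscle markers was 263 to 391 in KO AICAR livers, against 1938 to 2483 in WT AICAR livers. Only 2 of the 4 were tested, of which 1 was lower and 1 higher in KO. The lower one was Acta2, at -3.26 ± 0.82 (limma adjusted p = 0.0372), and Cnn1 was not detected on any array. The 9 stellate and fibroblast markers summed to 10477 to 11392 in KO AICAR livers, against 16512 to 19153 in WT AICAR livers, and 2 of them, Pdgfrb and Col1a1, were called lower. The red cell markers, 3 of 4 annotated, summed to 10389 to 10450 in KO AICAR livers, against 44286 to 49242 in WT AICAR livers. All 3 sums were lower on both KO AICAR arrays than on both WT AICAR arrays. Of the Kupffer cell markers 6 of 7 tested were lower (median -1.02), with sums of 14088 to 17848 in KO AICAR livers, against 27449 to 36780 in WT AICAR livers. Of the neutrophil markers 7 of 8 were lower (median -0.94), with sums of 1662 to 4259 in KO AICAR livers, against 4713 to 7116 in WT AICAR livers. These sums did not overlap between the genotypes either. The hepatocyte sum was 183418 to 187393 in KO AICAR livers, against 198368 to 201255 in WT AICAR livers. Endothelial sums overlapped, at 11065 to 12661 in KO AICAR livers, against 11164 to 14590 in WT AICAR livers, with 5 of 10 tested genes higher. The cholangiocyte sum was higher, at 561 to 1007 in KO AICAR livers, against 517 to 524 in WT AICAR livers, with 1 of 4 tested genes higher. The part of these cells in the Hspb1, Dnajb1 and Bag3 differences was not tested.

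The other 3 members did not pass. Hsph1, an HSP110 protein that acts as a nucleotide exchange factor of HSP70, read 11.39 and 11.92 in KO AICAR livers, against 11.46 and 11.31 in WT AICAR livers (0.27 ± 0.24, adjusted p = 0.533). Hsp90aa1, the inducible cytosolic HSP90, read 7.78 and 8.21 in KO AICAR livers, against 7.78 and 7.76 in WT AICAR livers (0.23 ± 0.3, adjusted p = 0.702). Its second probe was detected on 0 of the 16 arrays and was left out. Hspa1a, the strongly inducible HSP70, read 5.56 and 7.11 in KO AICAR livers, against 5.92 and 6.6 in WT AICAR livers, and the first of the KO arrays was not above background.

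**Figure D2:**
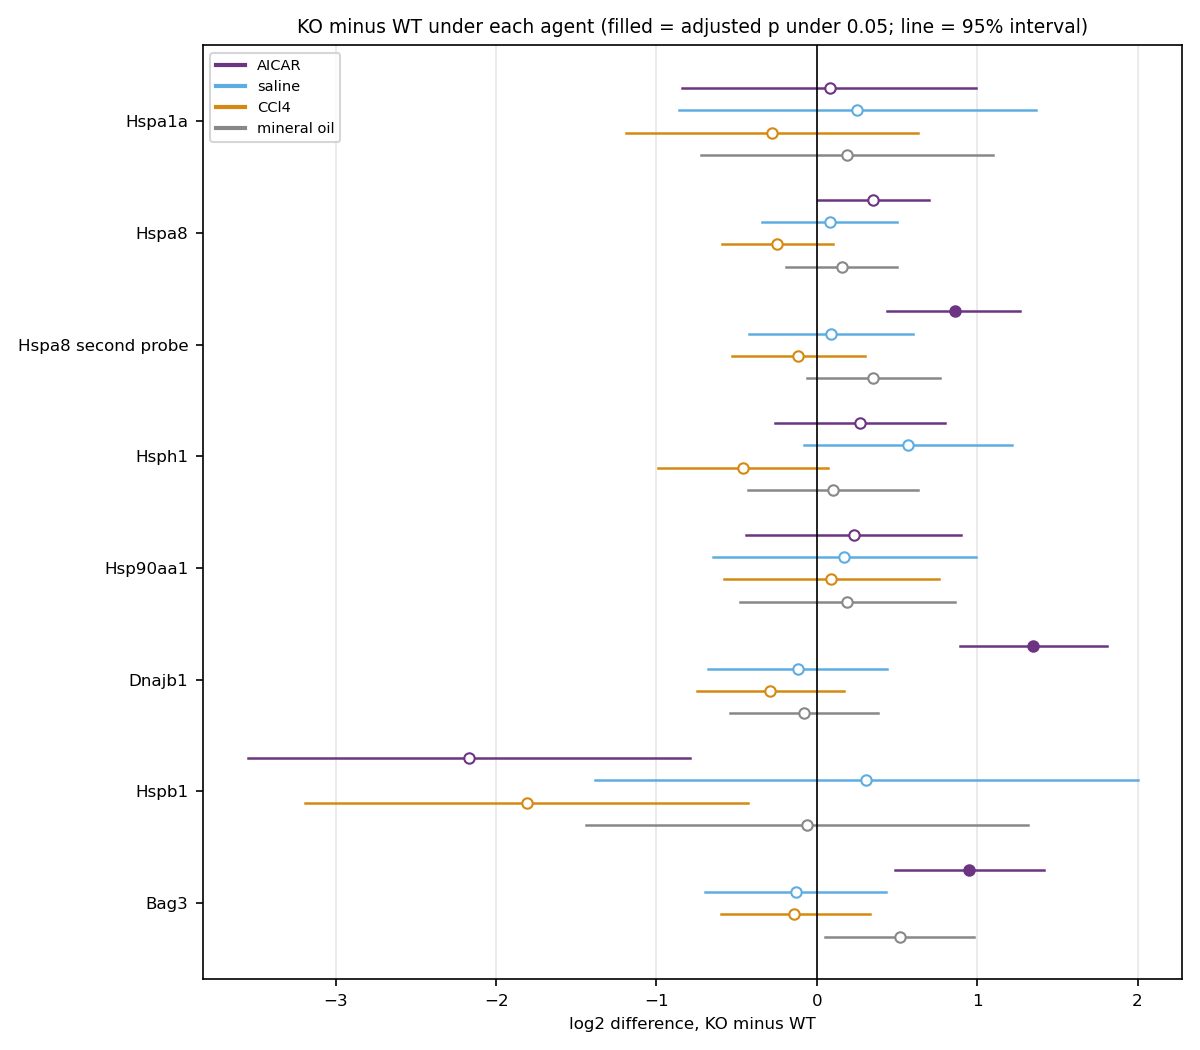
KO minus WT difference (x axis, log2 units) of each cytosolic heat shock gene under AICAR, saline, CCl4 and mineral oil, with 95% intervals from the limma fit and filled points for an adjusted p under 0.05. Filled points occur only under AICAR, for Dnajb1 (1.35), Bag3 (0.95) and the second Hspa8 probe (0.86), while Hspb1 lies at -2.17 under AICAR and -1.81 under CCl4.

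Set against saline, AICAR raised Bag3 in KO livers, and no member passed in WT livers. In KO, 1 of 7 members was called, where 1.2% of all features were. Bag3 read 12.82 and 13.28 in KO AICAR livers, against 11.82 and 11.81 in KO saline livers, a difference of 1.24 ± 0.26 (SE, 2 samples against 1), or 2.36-fold, with a limma adjusted p of 0.0498. The KO saline arm is 1 sample, so its spread is taken from the other groups in this and every other comparison that uses it. This call stood at the edge of the threshold: it was lost without any 1 of 13 of the 16 arrays, with adjusted p values up to 0.191, and with the replicate number as a block (0.068).

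Marker lists also differed between these KO groups. The 8 tested neutrophil markers were all lower (median -1.79, 6 with an unadjusted p under 0.05 and 0 called by limma), with sums of 1662 to 4259 in KO AICAR livers, against 8819 to 9359 in KO saline livers. The 9 stellate and fibroblast markers were all lower as well (median -0.64), with sums of 10477 to 11392 in KO AICAR livers, against 17665 to 18289 in KO saline livers. Kupffer cell, red cell, smooth muscle, lymphocyte, endothelial, skeletal muscle and hepatocyte sums were also lower on both KO AICAR arrays than on both KO saline arrays. The red cell sum, for example, was 10389 to 10450, against 27925 to 28554. The cholangiocyte sum was higher, at 561 to 1007 against 289 to 324, and so was the pancreatic acinar sum, at 751 to 843 against 613 to 663. The part of these cells in the Bag3 and Dnajb1 values was not tested.

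Dnajb1 in KO read 12.21 and 12.73 after AICAR, against 11.46 and 11.47 in saline, a difference of 1.01 ± 0.25 with a limma adjusted p of 0.0993. Its level in WT was 11.16 and 11.08 after AICAR, against 11.65 and 11.51 in saline (-0.46 ± 0.21, adjusted p = 0.469). The KO arrays thus lay above their vehicle and the WT arrays below theirs. The difference between these responses, KO minus WT, was 1.47 ± 0.33 with adjusted p = 0.145. With both KO saline arrays counted as samples it passed (adjusted p = 0.0316). Bag3 in WT read 12.04 and 12.15 after AICAR, against 12.11 and 11.78 in saline, so the groups overlapped (0.15 ± 0.21), and its difference of responses was 1.08 ± 0.33 with adjusted p = 0.315.

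Hspb1 was the WT member with the largest AICAR value. It read 11.94 and 12.05 in WT AICAR livers, against 9.98 and 9.79 in WT saline livers, a difference of 2.11 ± 0.63 (4.32-fold) that did not pass (adjusted p = 0.307). In KO it read 10.18 and 9.46 after AICAR, against 10.32 and 10.07 in saline, a range that overlapped. The difference of responses for Hspb1 was -2.48 ± 0.99 (adjusted p = 0.473). The smooth muscle marker sum was 1938 to 2483 in WT AICAR livers, against 592 to 810 in WT saline livers. It was 263 to 391 in KO AICAR livers, against 806 to 824 in KO saline livers. Of the 2 tested smooth muscle markers, 1 was higher and 1 lower after AICAR in each genotype, so the sum does not stand for both. The part of these cells in the Hspb1 values was not tested.

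Hspa1a was near the detection limit, with 7 of 16 arrays above background. It was detected on 1 of 2 KO AICAR arrays (5.56 and 7.11) and on neither KO saline array (5.44 and 5.58), with adjusted p = 0.576. In WT it was detected on both AICAR arrays (5.92 and 6.6) and on neither saline array (5.27 and 5.24), with adjusted p = 0.442. These differences depended on the background step: without background correction they were 0.31 in KO and 0.34 in WT, in place of 0.83 and 1, and no fold is given. Leaving out KO AICAR replicate 2, the array that read 7.11, lowered the KO difference to 0.05.

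In WT livers 0 of 7 members were called after AICAR (limma; 2 had an unadjusted p under 0.05), where 0.00882% of all features were called. For the difference of AICAR responses it was 0 of 7 (3 with an unadjusted p under 0.05), where 0.3% of features were called. Over the 6 members detected on every array the median difference was 0.27 log2 units in KO and 0.21 in WT, where all features had -0.05 and 0.02. The second Hspa8 probe read 14.27 and 14.24 in KO AICAR livers, against 13.79 and 13.62 in KO saline livers, and 13.3 and 13.5 in WT AICAR livers, against 13.59 and 13.63 in WT saline livers, so like Dnajb1 it lay above its vehicle in KO and below it in WT.

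**Figure D3:**
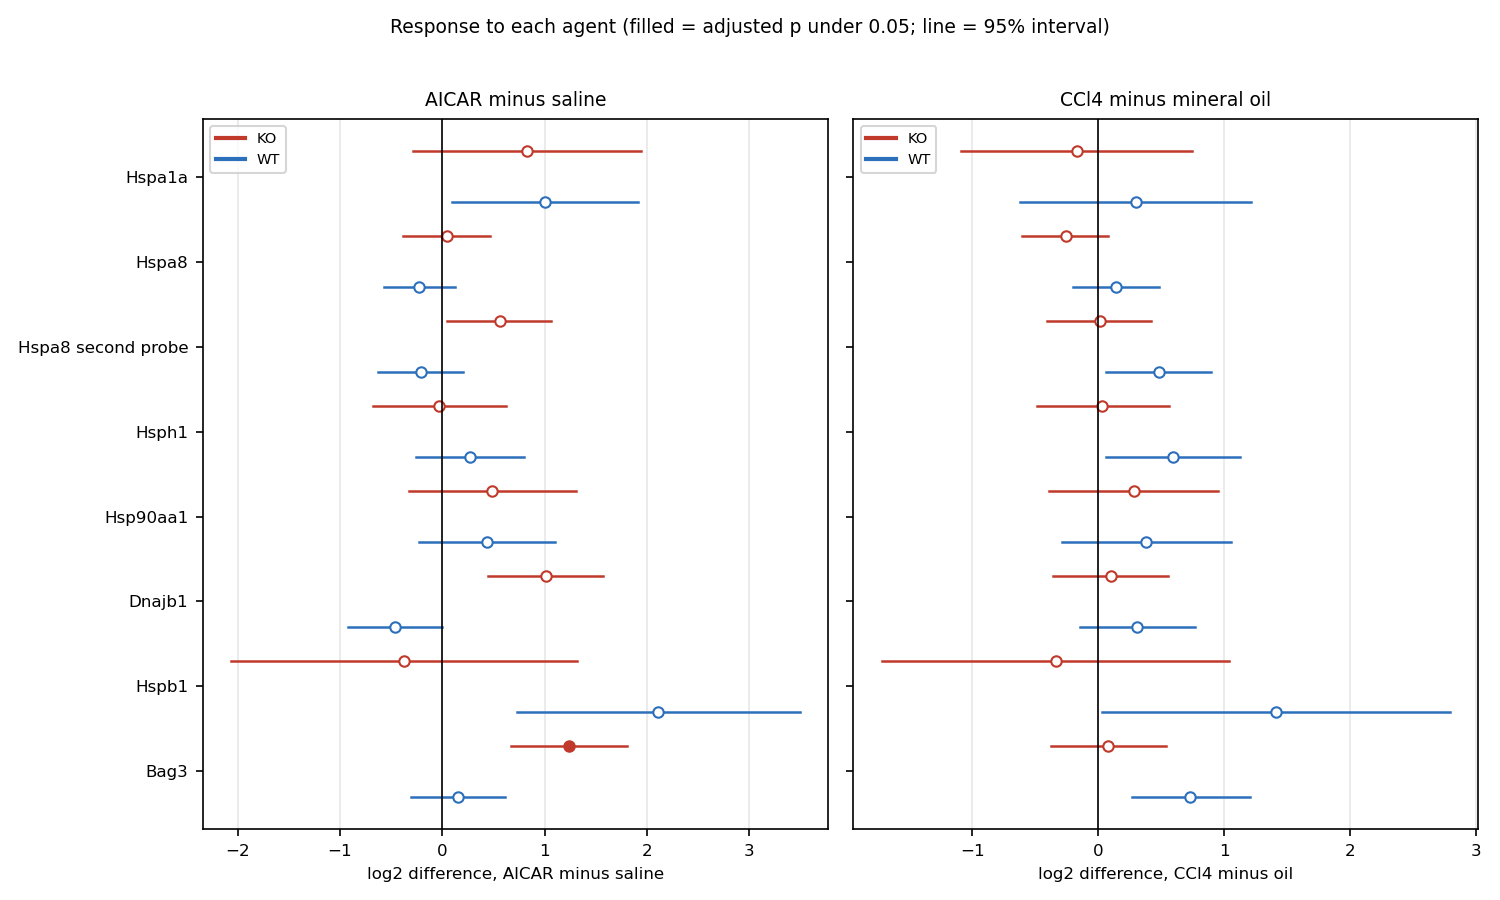
Difference from vehicle (x axis, log2 units) of each cytosolic heat shock gene for AICAR minus saline and CCl4 minus mineral oil, KO in red above WT in blue, with 95% intervals and a filled point for an adjusted p under 0.05. The 1 filled point is Bag3 in KO after AICAR (1.24). After CCl4 every WT point of the 7 genes lies above 0.

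After CCl4, no member passed in either genotype, and the WT group means all lay above those of vehicle. In WT, 0 of 7 members were called (3 had an unadjusted p under 0.05), where 0% of all features were called and 1058 had an unadjusted p under 0.05. All 7 members had a positive difference in WT, where 51.1% of all features were positive, and the 6 detected on every array had a median of 0.49 log2 units. With the authors' values the Hspa8 difference was -0.02 in place of 0.14. Bag3 had the smallest p-value: it read 12.22 and 12.37 in WT CCl4 livers, against 11.65 and 11.47 in WT oil livers (0.73 ± 0.21, adjusted p = 0.43). Hsph1 read 11.91 and 11.68 in WT CCl4 livers, against 11.22 and 11.18 in WT oil livers (0.59 ± 0.24, adjusted p = 0.52). For both genes the CCl4 arrays lay above the oil arrays. Hspb1 overlapped, with 11.41 and 10.71 in WT CCl4 livers, against 10.8 and 8.49 in WT oil livers (1.41 ± 0.63, adjusted p = 0.529). Hspa1a overlapped as well, with 5.94 and 5.76 in WT CCl4 livers, against 5.3 and 5.8 in WT oil livers. The first of these oil arrays was not above background.

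Markers of some other cell types moved with the WT values after CCl4. The smooth muscle markers summed to 4191 to 5583 in WT CCl4 livers, against 305 to 1406 in WT oil livers, with both tested genes higher (median 2.37). The cholangiocyte markers summed to 822 to 847 in WT CCl4 livers, against 277 to 396 in WT oil livers, with 4 of 4 tested genes higher (median 0.88). The neutrophil markers summed to 4922 to 6880 in WT CCl4 livers, against 3131 to 4092 in WT oil livers, with 6 of 8 tested genes higher (median 0.42). The hepatocyte sum was lower, at 194616 to 196814 in WT CCl4 livers, against 196890 to 201232 in WT oil livers. The part of these cells in the member values was not tested.

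In KO livers the CCl4 differences lay close to 0. None of 7 members was called (0 had an unadjusted p under 0.05), where 0% of features were called, and 4 members lay above 0 and 3 below. Over the 6 members detected on every array the median was 0.06. Bag3 read 12.09 and 12.23 in KO CCl4 livers, against 11.96 and 12.19 in KO oil livers. Hsph1 read 11.36 and 11.31 in KO CCl4 livers, against 11.54 and 11.07 in KO oil livers. Both sets of arrays overlapped. The brighter Hspa8 probe read 15.73 and 15.8 in KO CCl4 livers, against 16.06 and 15.99 in KO oil livers, and 16.04 and 15.97 in WT CCl4 livers, against 15.84 and 15.9 in WT oil livers.

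The difference of CCl4 responses, KO minus WT, was negative for the 6 members detected on every array, with a median of -0.48 and a range from -1.75 (Hspb1) to -0.1 (Hsp90aa1). Hspa1a is left out there, since it was not detected on either KO CCl4 array. Of all features 50.6% were positive, with a median of 0.01. The 6 values share the same arrays, WT oil among them, and so are not independent. For Hspa8 the value was -0.4, and -0.1 with median centring. For this difference of responses 0 of 7 members were called by limma (0 with an unadjusted p under 0.05), where 0% of all features were called. Between the genotypes after CCl4, 0 of 7 members were called (1 with an unadjusted p under 0.05), where 1.29% of features were. The member in question was Hspb1, which read 8.63 and 9.86 in KO CCl4 livers, against 11.41 and 10.71 in WT CCl4 livers (-1.81 ± 0.63, adjusted p = 0.252). The smooth muscle marker sum was 1540 to 2577 in KO CCl4 livers, against 4191 to 5583 in WT CCl4 livers; its part in the Hspb1 values was not tested.

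Without an agent no member passed between the genotypes. In mineral oil 0 of 7 members were called (1 with an unadjusted p under 0.05, Bag3), where 1.24% of features were, and in saline 0 of 7 (0 with an unadjusted p under 0.05), where 0.132% were. Bag3 read 11.96 and 12.19 in KO oil livers, against 11.65 and 11.47 in WT oil livers (0.52 ± 0.21, adjusted p = 0.273). Hsph1 read 11.61 and 11.77 on the KO saline arrays, which count as 1 sample, against 11.31 and 10.92 in WT saline livers. The difference of 0.57 ± 0.29 (1.49-fold) did not pass. Over both vehicles 0 of 7 members were called (0 with an unadjusted p under 0.05), where 1.32% of features were. The Dnajb1 difference there was -0.1 ± 0.16, with a 95% interval from -0.46 to 0.27. Mineral oil against saline also called 0 of 7 members (0 with an unadjusted p under 0.05), where 0% of features were called.

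Averaged over the 4 agents, KO minus WT, 0 of 7 members were called (2 with an unadjusted p under 0.05), where 9.26% of features were. Those 2 were Hspb1 (-0.93 ± 0.33, adjusted p = 0.11) and Bag3 (0.3 ± 0.11, adjusted p = 0.124). Without WT oil replicate 2, the array on which Hspb1 read 8.49, Hspb1 was called at -1.22 (adjusted p = 0.00922). No other left-out array brought a call in this comparison.

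The wider chaperone network was described from gene lists named by function, which were chosen with earlier results of these data known. Of the 4 tested genes for other small heat shock proteins, 1 was higher and 3 lower after AICAR, KO against WT (median -0.61). For AICAR against saline in KO, 1 was higher and 3 lower as well (median -0.23). The higher one was Hspb8, the partner that Bag3 binds in chaperone-assisted autophagy. Hspb8 was called in 4 comparisons, in which 1.2% to 9.26% of all features were called. Hspb8 read 14.35 and 14.34 in KO AICAR livers, against 13.03 and 13.36 in WT AICAR livers (1.15 ± 0.21, 2.22-fold, limma adjusted p = 0.00993), and 12.97 and 13.04 in KO saline livers, against 12.28 and 12 in WT saline livers. Unlike Bag3, its KO arrays lay above the WT arrays under every agent. Over both vehicles its difference was 0.88 ± 0.17 (adjusted p = 0.0305), over the 4 agents 0.9 ± 0.11 (adjusted p = 0.000798), and for AICAR against saline in KO 1.34 ± 0.26 (adjusted p = 0.0369). Hspb6, a small heat shock protein known from muscle, was lower over the 4 agents (-0.53 ± 0.12, adjusted p = 0.0233).

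In the rest of the HSP70 and HSP90 machinery, counts of calls are given beside the share over all features. After AICAR, KO against WT, 0 of 16 tested HSP70 system genes and 0 of 14 HSP90 cochaperones were called, with medians of 0.15 and 0.13. In that comparison 7.53% of all features were called. AICAR against saline in KO likewise gave 0 of 16 and 0 of 14, with medians of 0.17 and 0.11, where 1.2% of all features were called. In lists this short, 0 calls cannot be told from those shares. Over the 4 agents, 1 of 16 HSP70 system genes was called, where 9.26% of all features were. It was the J-domain protein gene Dnaja4, lower in KO (-0.61 ± 0.14, limma adjusted p = 0.0229). Neither the heat shock factor genes Hsf2 and Hsf4 nor Hsbp1, whose product binds heat shock factor 1, were called in any of these comparisons.

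The cytosolic chaperonin and the chaperones of other compartments were counted in the same way. After AICAR, KO against WT, 0 of 8 CCT chaperonin genes, 0 of 6 mitochondrial heat shock genes and 0 of 12 endoplasmic reticulum chaperones were called. The share over all features was 7.53%, from which 0 calls in lists this short cannot be told. Over the 4 agents, 1 of 8 chaperonin genes was called higher in KO, the subunit Cct8 (0.38 ± 0.1, limma adjusted p = 0.0361). Of the mitochondrial genes it was 1 of 6, the mitochondrial HSP70 Hspa9 (0.46 ± 0.12, limma adjusted p = 0.0327). The share over all features was 9.26% there, from which 1 call in lists this short cannot be told. For AICAR against saline in KO, 2 of 12 endoplasmic reticulum chaperones were called higher, where 1.2% of all features were called. Hspa5, the HSP70 of that compartment, read 9.91 and 10.59 in KO AICAR livers, against 7.72 and 7.51 in KO saline livers (2.64 ± 0.33, adjusted p = 0.0038), and the J-domain protein gene Dnajb9 rose by 1.83 ± 0.34 (adjusted p = 0.0305). In WT livers Hspa5 read 9.49 and 9.42 after AICAR, against 7.8 and 7.36 in saline, so the arrays were apart in WT as well.

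Immediate early genes, which are transcribed soon after many stimuli, tissue handling among them, were listed beside the chaperones. After AICAR, 9 of 10 tested were called higher in KO than in WT, where 7.53% of all features were called. Their median was 1.79, with Fosb (3.02), Dusp1 (3.4), Zfp36 (2.36) and Junb (1.58) among those called. AICAR against saline in KO called 3 of 10, where 1.2% of all features were called. This list too was chosen with earlier results known. After AICAR the immediate early genes moved with Dnajb1 and Bag3. They were also higher in KO without AICAR: 10 of 10 over both vehicles (median 0.52) and 7 of 10 after CCl4 (median 0.44). There Dnajb1 differed by -0.1 and -0.29, and Bag3 by 0.19 and -0.14. Over the 4 agents 7 of 10 were called higher, where 9.26% of all features were called. The part of such stimuli in the Dnajb1 and Bag3 values was not tested.

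**Figure D4:**
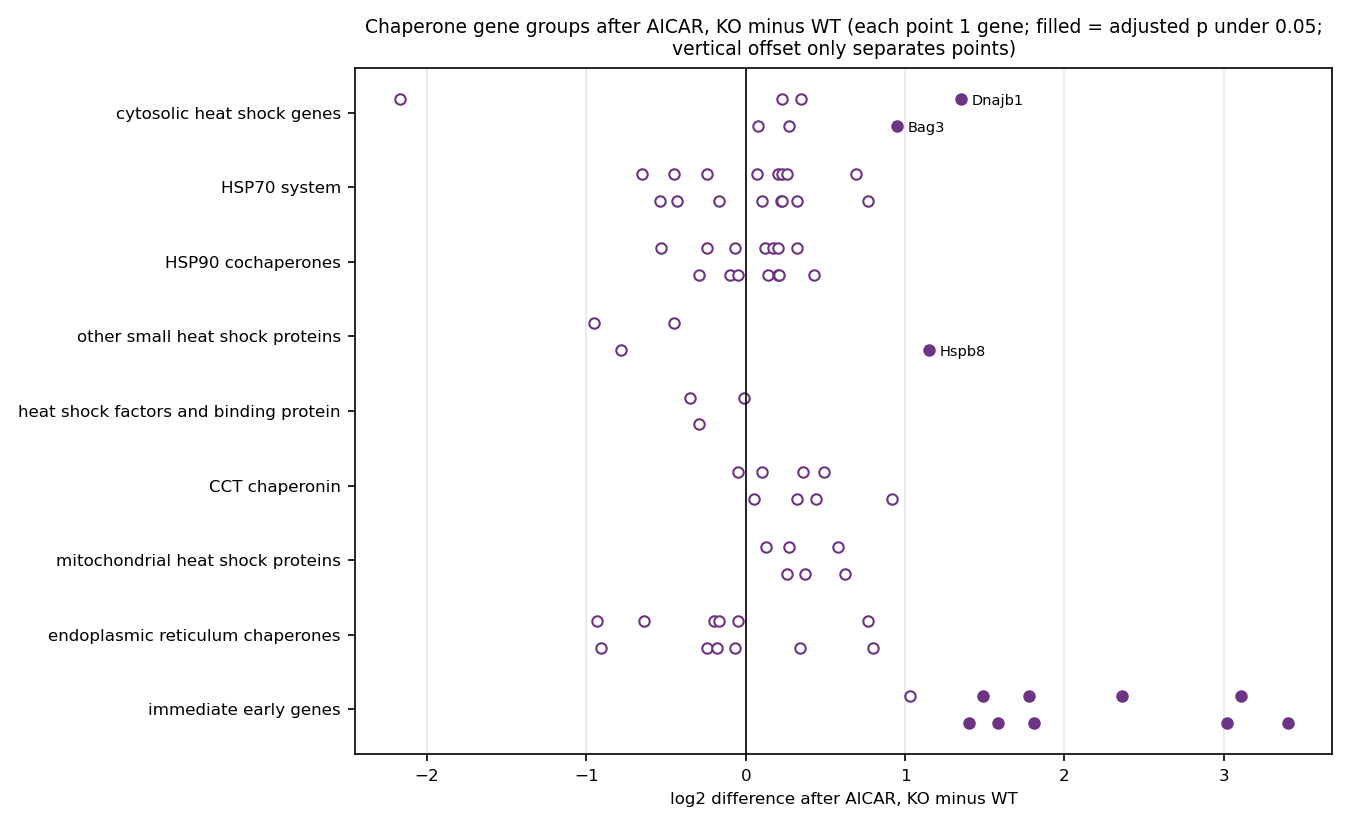
KO minus WT difference after AICAR (x axis, log2 units) for each tested gene of the listed groups, 1 point per gene, filled where the limma adjusted p was under 0.05. Among the chaperone groups the filled points are Dnajb1, Bag3 and Hspb8, and 9 of 10 immediate early genes are filled.

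Across the 15 samples, which share groups and normalization, Dnajb1 and Bag3 had the highest Pearson correlation of any pair of members (0.81). Hspb1 followed neither, at -0.26 with Dnajb1 and 0.06 with Bag3, and its lowest value was -0.3 with Hspa8. The tested genes most like Bag3 were Zfp91 (0.922), Gnl2 (0.915), Rabggtb (0.914), Nifk (0.911) and Atf3 (0.905). Those most like Dnajb1 were Zfp410 (0.951), Kcnv2 (0.921), Epc1 (0.912), Gpat3 (0.91) and Rel (0.903). Those most like Hspb1 were Cln3 (0.922), Cdr2 (0.903), Mfsd5 (0.901), Map4k4 (0.894) and Cd44 (0.884). They are the highest among the tested named genes outside the members, with unnamed probes left out, and they describe likeness in these samples only.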

How the data were processed

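Biotinylated cRNA from liver was hybridised to Illumina mouse arrays, per the labels' protocols. The submitters' processing notes name GenomeStudio. The authors deposited an intensity for every probe and array, linear and unnormalized, together with its detection p-value, which moves in steps of 1/798. A separate normalized intensity of the authors (array medians 190.9 to 191.1, rank correlation 1 with the raw signal, method not stated) served as an alternative.

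In R 4.3.3 with limma 3.58.1, normexp background correction relied on the detection p-values (offset 16), and quantile normalization and log2 came next. A probe was kept if detected (p under 0.05) on 2 or more arrays, which left 15411 probes. Each gene was represented by its kept probe with the highest mean, giving 10436 named genes and 902 unnamed probes. In the platform annotation 23978 probes carried 1 symbol, 0 several and 1719 none; 23962 matched RefSeq by Entrez number. Group means were fitted over all 8 groups with empirical Bayes moderation (7 residual and 3.76 prior degrees of freedom). P-values of the 13 comparisons were two-sided and adjusted by Benjamini and Hochberg over 11338 features. The plan had 16 samples, and averaging the KO saline arrays to reach 15 was decided after seeing that they differed by no more than noise. The fit was tested on simulated data.

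The members and gene lists were chosen with earlier results of these data known. All members are named, and of the other lists at most the 4 called genes with the smallest adjusted p per comparison. Likeness is given for the 3 members with the widest range of group means, with the 5 most correlated genes each. Replicate numbers were not used to pair the samples in the main fit. The deviations of same-numbered arrays correlated between -0.4 and 0.48 over 21 pairs of groups, with 6 over 0.1 and 9 below 0. Such a mix cannot exclude pairing in some of the groups. As alternatives, the fit was repeated with each array left out, with the replicate number as a block, with both KO saline arrays as samples, on the compared arrays alone, with trended and robust variance, over every kept probe, with a filter of detection p under 0.01 on 8 or more arrays or with none, on the authors' values, with median centring, and without background correction.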

Additional observations from a re-analysis of the deposited data

Results flagged for a closer look

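For 3 probe values every array of a genotype lay on the same side of its vehicle arrays. Every array of the other genotype lay on the opposite side of its own. The test of the difference itself did not pass for any of the 3. With so few arrays in a group, such a separation can also arise by chance. How many of all features showed the same pattern was not counted, so these 3 cases cannot be told from chance. For Dnajb1 after AICAR, the KO response minus the WT response was 1.47 ± 0.33 log2 units (SE, limma adjusted p = 0.145). For the second Hspa8 probe after AICAR it was 0.77 ± 0.3 (adjusted p = 0.479). For the brighter Hspa8 probe after CCl4 it was -0.4 ± 0.22 (adjusted p = 0.997), with KO below and WT above mineral oil. The last value depended on the scaling and the probe. It was -0.1 with median centring and -0.16 with the authors' values, under which the WT difference itself was -0.02 in place of 0.14. The signal of that probe lay near the array maximum, and the second Hspa8 probe differed by 0.01 in KO after CCl4, with overlapping groups.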

How the results depend on the processing

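Of 2346 values of single members under 10 alternatives and 16 left-out arrays, 0 reversed a call, 20 lost one and 13 gained one. KO against WT after AICAR called 2 members, 4 without background correction and 4 with the authors' normalized values (Hspa8 and Hspb1 added), 3 with both KO saline arrays as samples (Hspb1 added), 3 with every kept probe (Hspa8 added), 2 with only the arrays compared (Hspb1 gained, Bag3 lost), and 1 to 3 without 1 array. AICAR against saline in KO called 1 member, 2 without background correction, 2 with the authors' values and 2 with both KO saline arrays as samples (Dnajb1 added each time), 0 with every kept probe, 0 with only the arrays compared, and 0 to 1 without 1 array. The replicate block gave 0 there, with Bag3 at an adjusted p of 0.068. The difference of AICAR responses called 0 members, and 1 (Dnajb1) with both KO saline arrays as samples. KO against WT over the 4 agents called 0 members, and 0 to 1 without 1 array. Except where the arrays compared were fitted alone or both KO saline arrays counted, which change the samples, the cause was not tested. Hspa8 after AICAR, KO minus WT, was 0.35, and 0.62 with median centring. Groups of 2 arrays, 1 sample for KO saline, limit the precision of every value, and leaving out an array leaves its group 1 sample that is assumed to vary like the other groups. Hspa1a, detected on 7 of 16 arrays, was not above background in saline.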
